A study of Mus musculus with 7 samples.

Results

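The Zfp36, Roquin and Regnase mRNA decay factors are 7 genes, taken by name: Zfp36, Zfp36l1 and Zfp36l2 of the Zfp36 family, Zc3h12a and Zc3h12d of the Regnase family, and Rc3h1 and Rc3h2, which encode the Roquin proteins. All 7 were among the 39017 genes of the count table and among the 15968 genes with enough reads to be tested. They were measured by RNA sequencing of CD4+ T cells from female C57BL/6 mice with EAE (experimental autoimmune encephalomyelitis), a disease model for multiple sclerosis. Cells of the lymph nodes were taken on day 17 and kept in culture for 18 hours with 25 µg/mL of the myelin oligodendrocyte glycoprotein (MOG) peptide spanning residues 35 to 55. Both groups carried the floxed/floxed Kdm6a alleles. The 4 conditional knockout (cKO) libraries, replicates 2, 3, 7 and 12, were CD4-Cre (+/-), and the 3 wild-type (WT) libraries, replicates 10, 14 and 19, came from CD4-Cre (-/-) littermates. CD4-Cre acts in T cells, and only the cKO group carried it, so effects of Cre and of losing Kdm6a, a histone H3 lysine demethylase gene, cannot be told apart. Whether separate animals gave the libraries is not stated in the labels, and p-values therefore speak only of the spread among these libraries, which may be technical.

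Zfp36 proteins bind AU-rich elements of short-lived mRNAs through a tandem zinc finger domain and recruit the CCR4-NOT complex, which removes the poly(A) tail. Roquin proteins bind stem-loops and recruit the same deadenylase and decapping factors, whereas Regnase-1, the product of Zc3h12a, cuts such stem-loops itself. In T cells these proteins restrain mRNAs of cytokines and costimulatory receptors, and the protease Malt1 cleaves Regnase-1 and Roquin proteins after antigen receptor stimulation.

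In cKO cells the mRNAs of Zc3h12d, Zfp36 and Zfp36l1 fell, by 38.9%, 35.5% and 21.1% from the WT level. No decay factor was called higher. The other 4 mRNAs, Zfp36l2, Zc3h12a, Rc3h1 and Rc3h2, did not pass the test. A gene was called changed at an adjusted p under 0.05 by edgeR's quasi-likelihood test over all tested genes. The 3 of 7 members called lower stand beside 3.64% of all tested genes called lower and 2.79% called higher. These shares were not matched for abundance, and the members lay above 80.2% (Rc3h2) to 99.3% (Zfp36l2) of tested genes in mean CPM. The members, and the lists below, were chosen with earlier results of these data known, so such contrasts are a description. DESeq2 and limma voom each called 3 members lower and 0 higher, beside 5.37% and 5.81% of all tested genes called lower by these tools and 4.8% and 5.02% called higher (10.2% and 10.8% in either direction). The unadjusted edgeR p was under 0.05 for 3. The share of all tested genes under that unadjusted p was not counted, so counts at it, here and below, have no background. The median log2 fold change was -0.23 over the 7 members and 0.01 over all tested genes. Without WT replicate 10, without WT replicate 14, or with a covariate of B cell and myeloid markers, 2 members were called, and without cKO replicates 2 and 7 together 1, Zc3h12d.

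Total counts ran from 17910536 in cKO replicate 2 to 28697579 in WT replicate 14, and the lowest count of any member in any library was 1320. Levels are given as CPM, a gene's count relative to the library's TMM-scaled total, with mean ± SD over n = 4 cKO and n = 3 WT libraries. Lists of single values run through cKO replicates 2, 3, 7 and 12 and then WT replicates 10, 14 and 19. Kdm6a itself was at 101 ± 3.67 CPM in cKO and 119 ± 6.01 in WT. Its log2 fold change was -0.24 ± 0.06 (SE; adjusted p = 0.0414, edgeR). Leaving out any 1 library other than cKO replicate 2 ended this call, with adjusted p from 0.0538 without cKO replicate 12 to 0.173 without WT replicate 14, as did the marker covariate (0.0887) and leaving out cKO replicates 2 and 7 together (0.110). Defining CD4 T cell markers were present, at a summed 2960 to 3588 CPM in cKO and 3174 to 3589 in WT. Of 8 such markers Thy1 was called, lower in cKO (adjusted p = 0.0414, edgeR). B cell markers summed to 31.4 to 161 CPM in cKO and 31.2 to 69.6 in WT, and dendritic cell markers to 34.95 to 133 and 27.1 to 54.6. Monocyte and macrophage markers summed to 25.0 to 83.3 CPM and 26.6 to 31.5. All 3 sums were highest in cKO replicates 2 and 7, and among these markers only Clec9a was at 0 in every library. H2-Aa alone gave most of the dendritic cell sum in cKO replicates 2 and 7, at 114 and 91.2 CPM. The log2 fold change was positive for H2-Aa (1.26) and Xcr1 (0.59) and negative for Flt3 (-0.12) and Zbtb46 (-0.18). The dendritic cell sum therefore mainly follows 1 gene. None of the 8 B cell, 4 dendritic cell and 6 monocyte and macrophage markers tested was called. Of 5 natural killer cell markers tested, Klrb1c and Klre1 were called higher in cKO. Klrb1c was at 6.73 ± 1.84 CPM in cKO and 1.92 ± 0.288 in WT, and Klre1 at 3.58 ± 0.493 and 0.178 ± 0.0882. The list's sums were 59.95 to 75.2 CPM in cKO and 49.9 to 78.3 in WT. Most of each sum was Prf1, at 44.4 to 64.1 CPM in cKO and 45.1 to 72.9 in WT. Prf1, Ncr1 and Gzma were not called (log2 fold changes 0.05, 0.01 and -0.52). Neutrophil markers summed to 0.805 to 11.9 CPM in cKO and 1.30 to 8.39 in WT, and the pair of CD8 T cell markers to 12.9 to 16.3 and 9.12 to 11.5, with none called. The transcript Gm42418 took 9.22% of counts in cKO replicate 2 and 2.55% to 4.26% elsewhere.

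**Figure D1:**
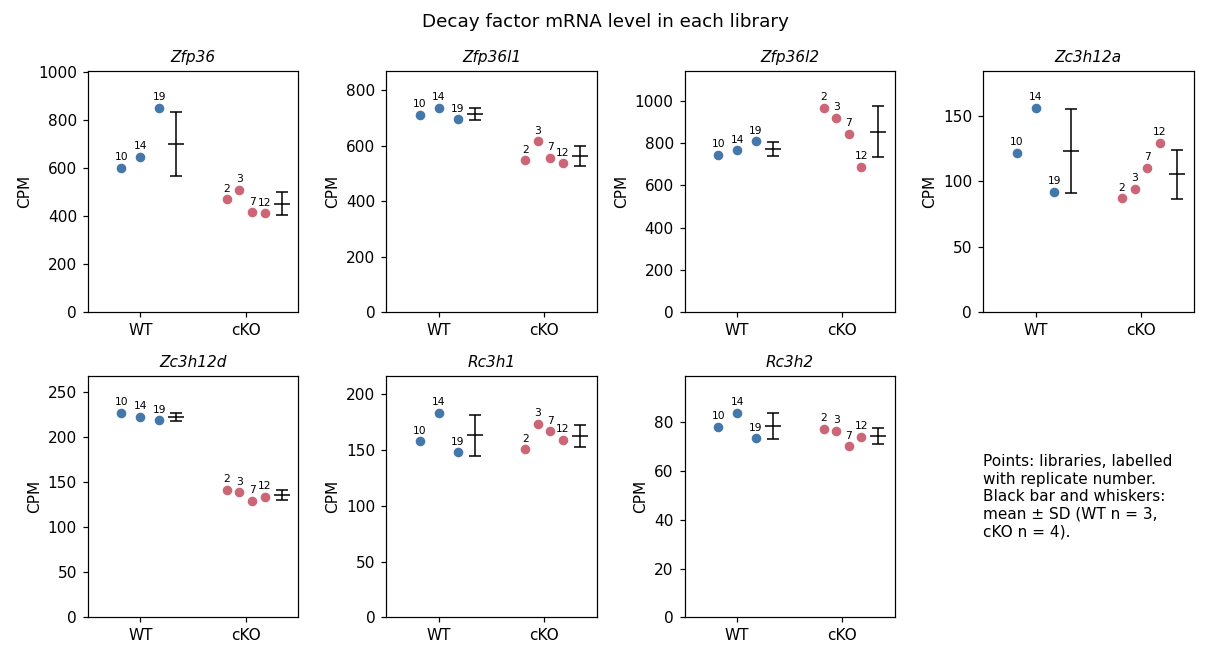
CPM (y axis, starting at 0) of each decay factor in the 3 WT and 4 cKO libraries, 1 panel per gene; points are libraries labelled with their replicate number, and bar and whiskers are mean ± SD. All cKO points lie below all WT points for Zfp36, Zfp36l1 and Zc3h12d, whose means were 452, 564 and 136 CPM in cKO against 700.4, 715 and 223 in WT.

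The promoters of the 3 genes called lower are shown so that the letters upstream of the RefSeq starts of genes whose mRNAs fell together can be compared. Sequences are from RefSeq on GRCm38.p6, written 5′ to 3′ along the gene's strand, with positions counted back from -1, the base before the RefSeq start. Of the 7 members 6 had an entry, and Zfp36l2 had none. Capitals mark every match on either strand to 8 motifs. These were the AP-1 motif TGANTCA, the CRE motif TGACGTCA, the EGR motifs GCGGGGGCG and GCGTGGGCG, the GC box GGGCGG, the ETS motif CCGGAAG, and the CArG box and the NF-kB site by name. For Zfp36 only the stretches around its matches are given, at chr7:28379309-28379338 and chr7:28379272-28379296 on the minus strand. Both lie inside the annotated gene used for its exon length, chr7:28376784-28380253, because the RefSeq start lies downstream of that annotation's start. For Zfp36l1 the 250 bases are chr12:80113014-80113263 on the minus strand, and for Zc3h12d chr10:7832220-7832469 on the plus strand.
Zfp36, EGR and ETS matches: acgccGCGGGGGCGcgtcCCGGAAGctcta
Zfp36, GC box and CArG box: ccaggCCGCCCCATAAAAGGagaaa
Zfp36l1: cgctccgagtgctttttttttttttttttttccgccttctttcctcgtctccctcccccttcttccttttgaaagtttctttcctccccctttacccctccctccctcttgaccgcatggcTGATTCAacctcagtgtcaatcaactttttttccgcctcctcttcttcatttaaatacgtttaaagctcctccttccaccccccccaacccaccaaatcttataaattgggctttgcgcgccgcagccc
Zc3h12d: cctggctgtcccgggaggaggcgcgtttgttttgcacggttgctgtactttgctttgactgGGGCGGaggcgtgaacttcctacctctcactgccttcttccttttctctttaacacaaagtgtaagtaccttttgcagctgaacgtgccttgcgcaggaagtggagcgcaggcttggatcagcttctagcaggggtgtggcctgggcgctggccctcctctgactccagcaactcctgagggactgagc

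No motif matched in all 3 windows, and a GC box matched in those of Zfp36 and Zc3h12d. In Zfp36 an EGR match lay at -105 to -97, an ETS match at -92 to -86, a GC box on the opposite strand at -63 to -58, and a CArG box, the motif of serum response factor, at -58 to -49. The GC box and the CArG box shared the base at -58. Zfp36l1 held a match to the AP-1 motif at -129 to -123, and Zc3h12d held a GC box at -189 to -184. The motif was searched with any base at its centre, N, and the letters in Zfp36l1 were TGATTCA. Of 32851 RefSeq promoter windows of the same 250 bases, 1.47% held a CArG box, 2.57% the EGR motif GCGGGGGCG, 6.75% the AP-1 motif, 6.91% the ETS motif and 32.7% a GC box. The CRE motif was in 1.55%, the EGR motif GCGTGGGCG in 0.536% and the NF-kB site in 7.25%, and the 6 windows held none of these. Rc3h1, which was not called, also held a match to the AP-1 motif, with the letters TGACTCA at -133 to -127, and 5 GC boxes. Zc3h12a held 5 GC boxes and Rc3h2 held no match. A match is a description of letters and was not tested for binding.

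Zfp36 (ENSMUSG00000044786, chr7:28376784-28380253 on mm10, minus strand) encodes tristetraprolin, the founding member of its family and a decay factor for Tnf mRNA. Its level was 469.9, 509.7, 415 and 412 CPM across the cKO libraries and 601, 648 and 852 CPM across the WT libraries. Every cKO library lay below every WT library, and WT replicate 19 stood above the other WT libraries. The means were 452 ± 46.9 CPM in cKO and 700.4 ± 133 in WT. The log2 fold change was -0.63 ± 0.12 (SE; 95% interval -0.91 to -0.35; adjusted p = 0.0167, edgeR). Libraries without overlap and lower in cKO were found for 10.7% of all tested genes. Without WT replicate 19 the log2 fold change was -0.47 (adjusted p = 0.0476, edgeR). With a covariate built from markers of B cells, monocytes and dendritic cells the value was -0.57 and did not pass the threshold (adjusted p = 0.0792, edgeR), and without cKO replicates 2 and 7 together -0.61 (adjusted p = 0.0733). The part of other cell types in this difference was not tested further. In bulk RNA, fewer cells of a type and less RNA per cell cannot be told apart.

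Zfp36l1 (ENSMUSG00000021127, chr12:80107754-80113013, minus strand) encodes a paralog that acts with Zfp36l2 in early lymphocyte development. It stood at 548, 616, 556 and 536 CPM across the cKO libraries and 713, 738 and 696 CPM across the WT libraries. The cKO libraries all lay below the WT libraries, and the spread within each group was small. The means were 564 ± 35.5 and 715 ± 21.2 CPM, and the log2 fold change was -0.34 ± 0.06 (SE; 95% interval -0.49 to -0.20; adjusted p = 0.0139, edgeR). Zfp36l1 was no longer called without WT replicate 10 (adjusted p = 0.0570, edgeR), without WT replicate 14 (adjusted p = 0.0765) and without cKO replicates 2 and 7 together (adjusted p = 0.0762), while the log2 fold change stayed between -0.39 and -0.32 over all 16 alternatives. The noncoding gene Gm26669 lies on the opposite strand and shares 1672 exonic bases with Zfp36l1, out of 1808 of its own and 2990 of Zfp36l1. Its mean was 222 ± 17.1 CPM in cKO and 284.6 ± 9.99 in WT, with a log2 fold change of -0.36 ± 0.07 (adjusted p = 0.0154, edgeR). Gm26669 was no longer called without WT replicate 10 (adjusted p = 0.0650), without WT replicate 14 (0.0815), with the marker covariate (0.055) and without cKO replicates 2 and 7 (0.0828). Zfp36l1 had 2.50 to 2.62 times the count of Gm26669 in every library. Whether the counting used strand is not given in the sources used here, so reads of these genes cannot be told apart and both levels are uncertain.

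Zfp36l2 (ENSMUSG00000045817, chr17:84183931-84187947, minus strand) encodes the paralog that acts with Zfp36l1 in thymic T cell development. It was at 967, 917, 844 and 686 CPM across the cKO libraries and 742, 765 and 807 CPM across the WT libraries. The groups overlapped, with cKO replicate 12 below and the other cKO libraries above every WT library. The log2 fold change was 0.15 ± 0.11 (SE; 95% interval -0.10 to 0.39; adjusted p = 0.492, edgeR). It was 0.078 without cKO replicate 2, 0.24 without cKO replicate 12, 0.051 without cKO replicates 2 and 7 together and 0.033 with the marker covariate, with no call.

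Within each library the balance among the family members can be read from ratios of counts, which need no scaling between libraries. The Zfp36 to Zfp36l2 ratio was 0.486, 0.556, 0.492 and 0.601 across the cKO libraries and 0.810, 0.847 and 1.06 across the WT libraries. All cKO ratios lay below all WT ratios, with means of 0.534 ± 0.0549 and 0.904 ± 0.132. On the log2 scale the difference was -0.76 (two-sided exact permutation p = 0.0286, which is the lowest value 35 splits can give). The Zfp36 to Zfp36l1 ratio was 0.857, 0.828, 0.746 and 0.769 in cKO and 0.844, 0.878 and 1.22 in WT, in the same order of replicates. These groups overlapped, and the log2 difference was -0.28 (exact permutation p = 0.0571) and, without WT replicate 19, -0.11. With Benjamini-Hochberg adjustment over the 2 ratios tested, the exact p was 0.0571 for each, so neither passed 0.05. The ratio of Zfp36l1 to Zfp36l2, looked at after the values were seen and not tested, was 0.567 to 0.782 in cKO and 0.862 to 0.965 in WT.

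**Figure D2:**
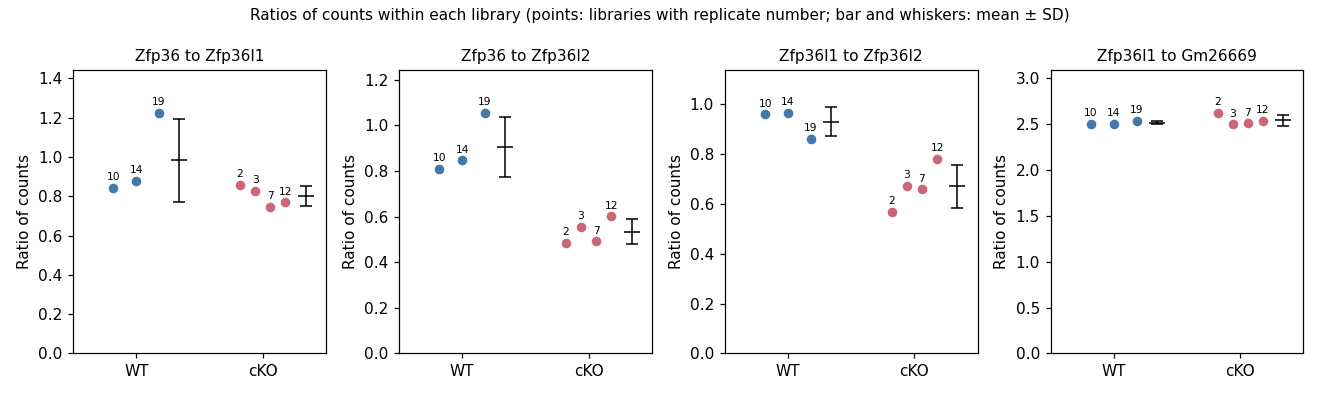
Ratios of counts within each library (y axis, no unit, starting at 0) for 4 gene pairs in WT and cKO; points are libraries with their replicate number, and bar and whiskers are mean ± SD. The Zfp36 to Zfp36l2 ratio is 0.486 to 0.601 in cKO and 0.810 to 1.06 in WT, and the Zfp36l1 to Gm26669 ratio lies between 2.50 and 2.62 throughout.

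Zc3h12d (ENSMUSG00000039981, chr10:7832470-7870396, plus strand) encodes Regnase-4, a lymphocyte member of the Regnase family described as a candidate tumour suppressor in human lymphoma. Its level was 141, 139, 129.6 and 134 CPM across the cKO libraries and 227, 222 and 218.5 CPM across the WT libraries. The groups were far apart next to their spread, and no library came near the other group. The means were 136 ± 5.18 and 223 ± 4.20 CPM, and the log2 fold change was -0.71 ± 0.05 (SE; 95% interval -0.83 to -0.59; adjusted p = 0.000122, edgeR). By p, Zc3h12d ranked 24 of 15968 tested genes. It was called in all 16 alternatives, with log2 fold changes from -0.74 to -0.69, including the fit with the marker covariate and the fit without cKO replicates 2 and 7.

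Zc3h12a (ENSMUSG00000042677, chr4:125118423-125127840, minus strand) encodes Regnase-1, the endonuclease that degrades Il6 mRNA in macrophages and restrains T cell activation. It was at 87.1, 94.4, 110.5 and 129.5 CPM across the cKO libraries and 122, 156.5 and 92.1 CPM across the WT libraries. The groups overlapped, with WT replicate 19 below cKO replicates 3, 7 and 12. Its log2 fold change was -0.23 ± 0.18 (SE; 95% interval -0.63 to 0.17; adjusted p = 0.522, edgeR), the widest interval among the 7 members. The log2 fold change was -0.027 without WT replicate 14, -0.40 without WT replicate 19, -0.34 without cKO replicate 12 and -0.15 without cKO replicate 2, with no call.

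Rc3h1 (ENSMUSG00000040423, chr1:160906418-160974978, plus strand) encodes Roquin-1, which limits follicular helper T cells in part through Icos mRNA. Its level was 150.4, 173, 166 and 159 CPM across the cKO libraries and 158, 183 and 148 CPM across the WT libraries. The groups overlapped throughout, with a log2 fold change of -0.0063 ± 0.082 (SE; 95% interval -0.19 to 0.18; adjusted p = 0.977, edgeR), whose sign changed with the setting. Rc3h2 (ENSMUSG00000075376, chr2:37370069-37422903, minus strand) encodes the partly redundant Roquin-2. Its CPM was 77.1, 76.4, 69.95 and 73.7 in cKO and 78.0, 83.7 and 73.2 in WT, in the same order of replicates. These groups overlapped too, with a log2 fold change of -0.08 ± 0.07 (SE; 95% interval -0.22 to 0.07; adjusted p = 0.568, edgeR).

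**Figure D3:**
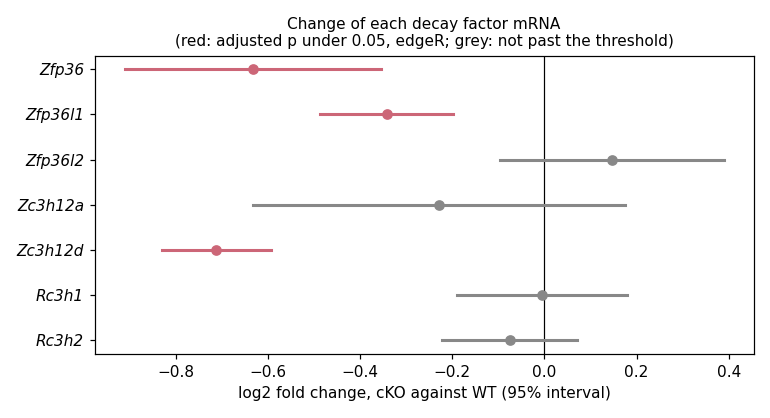
Log2 fold change of each decay factor, cKO against WT (x axis), with its 95% interval; red marks an adjusted p under 0.05 by edgeR. The intervals of Zfp36 (-0.91 to -0.35), Zfp36l1 (-0.49 to -0.20) and Zc3h12d (-0.83 to -0.59) lie below 0, and the other 4 include 0.

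Per kilobase of annotated exon (RPKM), the Zfp36 family was far above the other members in both groups. In WT the order was Zfp36l1 at 239 ± 7.10 RPKM, Zfp36l2 at 218.5 ± 9.34 and Zfp36 at 202 ± 38.4, and the last pair overlapped. Zfp36, at 173 to 245.5 RPKM in WT, also overlapped Zfp36l1, at 233 to 247. Zc3h12d at 54.4 and Zc3h12a at 42.8 RPKM followed and overlapped, before Rc3h1 at 14.4 and Rc3h2 at 3.99. In cKO the order was Zfp36l2 at 242 ± 34.7 RPKM, Zfp36l1 at 189 ± 11.9, Zfp36 at 130.2 ± 13.5, Zc3h12a at 36.6, Zc3h12d at 33.2, Rc3h1 at 14.3 and Rc3h2 at 3.79. Zfp36l2 overlapped Zfp36l1 there, and Zc3h12a overlapped Zc3h12d. The order depended on which length was used. With its principal transcript's 2790 bases in place of 3470 bases of annotated exon, Zfp36 came first in WT at 251 ± 47.7 RPKM. At 216 to 305 RPKM there, it overlapped both paralogs. In cKO it stayed below both paralogs' means at 162 ± 16.8, and its 148 to 183 overlapped Zfp36l1 at 179 to 206.

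Each gene's pattern over the 7 libraries was compared with 9673 other tested genes by the root mean square (RMS) difference of log2 CPM after centring each gene on its own mean. This measure includes the difference between the groups, so it is a description. For Zc3h12d the nearest gene was Dusp1, which encodes a phosphatase of mitogen-activated protein kinases, at an RMS difference of 0.0682. Fbxo27, Sntb1, Plekhg5 and Psen2, a presenilin gene, followed at 0.0737 to 0.0785, and 18 genes lay within 0.1. For Zfp36l1 the nearest were Supt7l, Nudt14, Setd7 (a lysine methyltransferase gene), Atp11b and Inpp4a, at 0.0368 to 0.0433, and 232 genes lay within 0.1. For Zfp36 no gene came within 0.1, and Lysmd2, Slc17a9, Rab3d, Mctp2 and Klhl5 were nearest at 0.114 to 0.128. Among the members themselves, Rc3h1 and Rc3h2 were the closest pair at 0.0946, and Zfp36 was closest to Zc3h12d at 0.176. These differences and counts depend on how much each gene itself varied about its mean, by 0.354 for Zc3h12d, 0.352 for Zfp36, 0.181 for Zfp36l1, 0.102 for Rc3h1 and 0.0757 for Rc3h2.

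For the machinery of deadenylation, decapping and the exosome, edgeR called shares at or below the 6.44% of all tested genes called in either direction. Of 20 tested genes of deadenylation, edgeR called 1 (5.0%) lower and 0 higher in cKO, with a median log2 fold change of -0.09. DESeq2 called 2 lower and 0 higher, and voom 2 lower and 1 higher. These stand beside 10.2% and 10.8% of all tested genes called in either direction by these tools. The gene called by edgeR was Tob1, which encodes an antiproliferative adaptor of the CCR4-NOT deadenylase. Tob1 was at 70.9, 70.5, 82.0 and 58.9 CPM across the cKO libraries and 153, 162 and 156 CPM across the WT libraries. Every cKO library was far below every WT library, and the log2 fold change was -1.15 ± 0.10 (SE; adjusted p = 0.000217, edgeR). Of 21 genes of decapping and decay from the 5′ end, edgeR called 0, DESeq2 and voom 1 each, and the unadjusted p was under 0.05 for 1, and edgeR called 1 without cKO replicate 12. The named members of highest CPM there were the helicase gene Ddx6, at 498 ± 12.8 CPM in cKO and 477.5 ± 2.50 in WT (log2 fold change 0.06 ± 0.05, adjusted p = 0.568), and Gigyf1, a translational repressor gene, at 199 ± 13.8 and 211 ± 14.4 (-0.08 ± 0.07, adjusted p = 0.579). Of 16 genes of the RNA exosome and its helper complexes, edgeR, DESeq2 and voom called 0, and the unadjusted edgeR p was under 0.05 for 2. Skiv2l, which encodes an exosome helicase, was at 119 ± 2.30 CPM in cKO and 128 ± 6.70 in WT (log2 fold change -0.10 ± 0.05, adjusted p = 0.347). Exosc10, which encodes an exosome nuclease, was at 93.5 ± 4.77 and 94.97 ± 3.22 (-0.02 ± 0.06, adjusted p = 0.879).

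Other proteins that bind mRNA and alter its stability made a list of 25 tested genes, of which edgeR and DESeq2 called 0 and voom 3. The unadjusted edgeR p was under 0.05 for 6, which cannot be read as an excess without the share of all genes at that p. Pcbp2, which encodes a poly(C)-binding protein, was at 572 ± 39.9 CPM in cKO and 662 ± 46.3 in WT (log2 fold change -0.21 ± 0.07, adjusted p = 0.136, edgeR). Pum2, which encodes a Pumilio repressor, was at 371 ± 12.3 and 395 ± 15.3 CPM (-0.09 ± 0.06, adjusted p = 0.388). Of 14 tested genes that act upstream of the decay factors, 2 were lower and 0 higher, with a median of 0.02, beside 3.64% of all tested genes lower and 2.79% higher. DESeq2 and voom each called 2 lower and 1 higher. Ikbkb encodes the IκB kinase subunit that phosphorylates Regnase-1 ahead of its degradation. It was at 165, 196.5, 183 and 183 CPM across the cKO libraries and 239.7, 253 and 246 CPM across the WT libraries. No library overlapped, and the log2 fold change was -0.44 ± 0.07 (SE; adjusted p = 0.00483, edgeR). Mapk11, which encodes a p38 kinase, was at 25.2 ± 3.03 CPM in cKO and 35.8 ± 2.38 in WT (log2 fold change -0.51 ± 0.10, adjusted p = 0.0192, edgeR). Mapk11 was no longer called without WT replicate 10, 14 or 19 (adjusted p = 0.0576, 0.0697 and 0.0864).

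**Figure D4:**
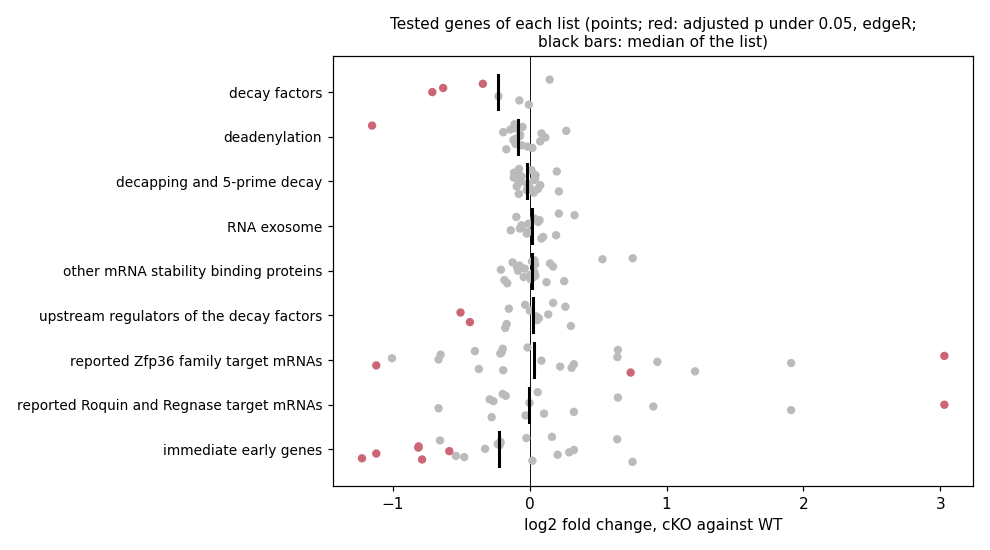
Log2 fold change, cKO against WT (x axis), of the tested genes of the decay factors and of 8 related lists (rows); each point is a gene, red marks an adjusted p under 0.05 by edgeR, and black bars are list medians. The decay factors and the immediate early genes both have a median of -0.23, and all genes have 0.01.

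Reported target mRNAs of the decay factors were called in both directions, in small numbers. Of 22 tested targets of the Zfp36 family, 2 were higher and 1 lower in cKO, beside 2.79% of all tested genes higher and 3.64% lower, with a median log2 fold change of 0.03 and single values from -1.12 to 3.03. The 3 called were 13.64% of the list, beside 6.44% of all tested genes called in either direction. DESeq2 called 2 higher and 2 lower, and voom 2 higher and 3 lower. The unadjusted edgeR p was under 0.05 for 5 higher and 6 lower targets. Neither number can be read as an excess, since the share of all tested genes at that p was not counted. Without cKO replicate 12 edgeR called 2 higher and 5 lower, and without WT replicate 10 or 14 it called 1 and 1. Bcl2, an antiapoptotic gene, was at 373, 357, 389 and 349 CPM across the cKO libraries and 179.6, 214 and 267 CPM across the WT libraries. All cKO libraries exceeded all WT libraries (log2 fold change 0.74 ± 0.12 SE, adjusted p = 0.00661, edgeR). Fos, an AP-1 subunit gene, was at 97.0, 132, 108 and 78.4 CPM in cKO and 204, 218 and 257 in WT, in the same order. All cKO libraries were below all WT libraries (-1.12 ± 0.15 SE, adjusted p = 0.0030, edgeR). Il6, an inflammatory cytokine gene, had 32, 13, 15 and 27 reads in cKO and 2, 2 and 6 in WT, in that order. Il6 was thus barely detected in either group, at 1.08 ± 0.616 and 0.128 ± 0.0942 CPM. Its log2 fold change was 3.03 ± 0.63 (SE; adjusted p = 0.0213, edgeR), a fitted value that depends on the prior count at so few WT reads. Il6 was no longer called without WT replicate 10 (adjusted p = 0.0990) or 14 (0.113), with the marker covariate (0.0581) and without cKO replicates 2 and 7 (0.0513). Of 15 tested targets of Roquin and Regnase proteins, 1 was called, the same Il6, higher in cKO, and the median was -0.0019. That is 6.67% of the list, near the 6.44% of all tested genes called in either direction. Without cKO replicate 7 the number called was 2, and without WT replicate 10 or 14 it was 0. The unadjusted edgeR p was under 0.05 for 3 higher and 3 lower targets of this list, again without a background share. The Zfp36 and the Roquin and Regnase target lists share Il2, Il6, Tnf, Ifng, Ptgs2 and Ier3, so their counts are not independent.

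Zfp36 is itself induced early after stimulation in many cell types, and of 22 tested immediate early genes 6 were lower and 0 higher in cKO, with a median log2 fold change of -0.23, beside 3.64% of all tested genes lower. DESeq2 called 11 of them lower and voom 10, beside 5.37% and 5.81% of all tested genes. By sign alone 7 of the 22 had a positive log2 fold change and 15 a negative one. The list was chosen with earlier results of these data known. The summed level of the list was 5044 to 5439 CPM in cKO and 7056 to 7935 in WT, and without Jun and Junb, which were left out after their values were seen, 3160 to 3492 in cKO and 3969 to 4300 in WT. Dusp2, which encodes a nuclear phosphatase of mitogen-activated protein kinases, was at 59.9, 46.2, 50.2 and 58.9 CPM across the cKO libraries and 111.5, 117 and 148.5 CPM across the WT libraries. The groups were well apart (log2 fold change -1.23 ± 0.12 SE, adjusted p = 0.000495, edgeR). Dusp1 was at 165 ± 5.78 CPM in cKO and 285 ± 9.28 in WT, a log2 fold change of -0.79 ± 0.05 (adjusted p = 7.56e-05). Junb, an AP-1 subunit gene, changed by -0.81 ± 0.09 (adjusted p = 0.000839) and Ier2 by -0.59 ± 0.08 (adjusted p = 0.00251). Fos, which stands in the Zfp36 target list too, and Jun (-0.81 ± 0.12, adjusted p = 0.00417, edgeR) were the other called members. Whether the lower immediate early genes had a part in the lower Zfp36 level was not tested.

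**Figure D5:**
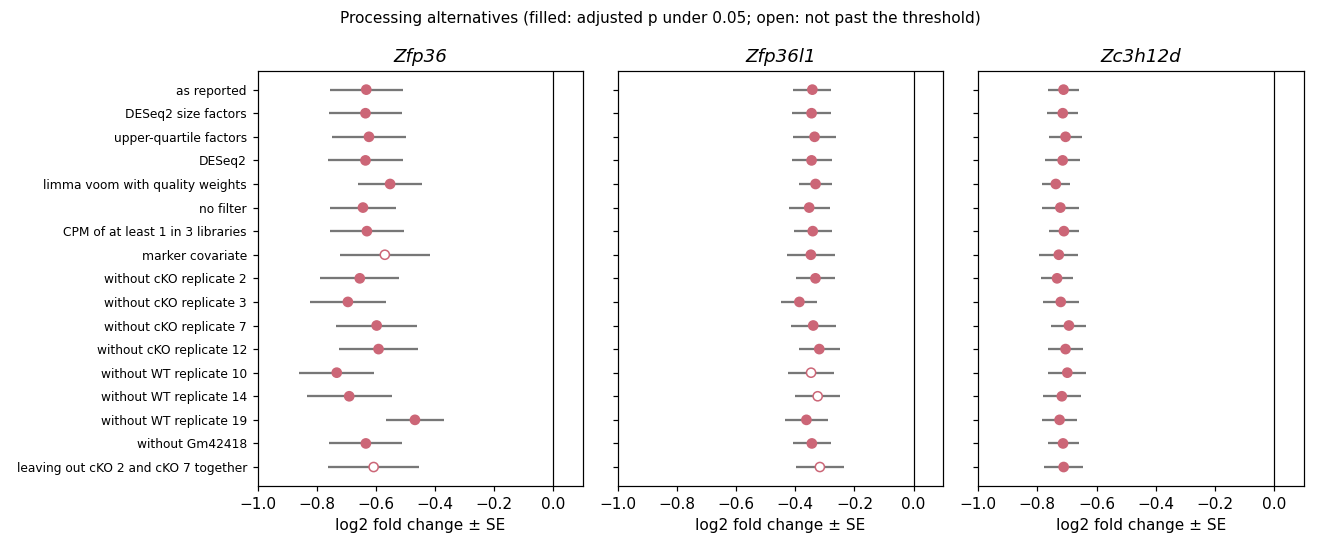
Log2 fold change ± SE (x axis) of the 3 called decay factors as reported and under 16 alternatives (rows); filled points have an adjusted p under 0.05 and open points do not. Zc3h12d is filled in every row, Zfp36 is open in 2 and Zfp36l1 in 3, and every point lies below 0.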

How the data were processed

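RNA of 7 libraries was measured. The authors deposited raw counts of reads for each Ensembl gene, whole numbers whose totals differ between libraries. A stranded kit followed enrichment of mRNA, per the labels' protocols, and bcl2fastq 2.17 and the build mm10 were used, per the submitters' processing notes. The aligner, counter and strand use were not given in the sources used here.

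For the test, genes were filtered with filterByExpr, scaled by TMM and tested with edgeR 4.0.16 (glmQLFit and glmQLFTest, R 4.3.3), comparing cKO with WT without a covariate. P-values were Benjamini-Hochberg adjusted over 15968 genes, with 0.05 as the threshold. Standard errors came from the F statistic. Symbols, coordinates and exon lengths came from GENCODE release M21, which matched 37693 of 39017 identifiers. The 7 members and 8 function lists were chosen with earlier results of these data known. Of 205 list and marker entries 204 were matched. Named genes were the members, Kdm6a, up to 4 called genes of each list with the lowest p (the 2 of highest CPM where none passed), and the 5 genes nearest each called member among those with a mean CPM of at least 5. Further called list members, marker genes and Gm26669 were named after their values were seen. Log2 CPM for likeness used a prior count of 2.

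Between any 2 libraries the chi-square per gene was at least 5.91 (1 is sampling noise), so no library was a duplicate. The alternatives tried were upper-quartile scaling, scaling by DESeq2 size factors, the DESeq2 1.42.0 test, voom (limma 3.58.1) with quality weights, no filter, at least 1 CPM in 3 libraries, a covariate from 18 markers of B cells, monocytes and macrophages, and dendritic cells, an adjusted p under 0.1, and removal of each library in turn. Removing Gm42418, leaving out cKO replicates 2 and 7 together, doubling the smaller tail of the ratio test and principal transcript lengths were added after seeing the data. Tables and plots used Python 3.11.15, pandas 2.3.3 and matplotlib 3.10.9.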

Additional observations from a re-analysis of the deposited data

How the results depend on the processing

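No paired analysis was made because the labels give no litter or pairing for single libraries. The groups held 4 and 3 libraries, and the effect of depth was not measured. The gene count was lowest without a WT library. Of 15968 genes 1028 were called, against 1644 at an adjusted p under 0.1, 1625 with DESeq2, 1729 with voom, 655 with the marker covariate and 419 to 1065 without 1 library (497, 419 and 466 without WT replicates 10, 14 and 19). All scalings moved the median log2 fold change of all genes by less than 0.1. The number of decay factors called was 3, 2 to 3 without 1 library, and 1 without cKO replicates 2 and 7.

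Zfp36 missed the threshold with the marker covariate (-0.57) and without cKO replicates 2 and 7 (-0.61), and lay between -0.73 and -0.47 without 1 library. Zfp36l1 missed it without WT replicate 10 (-0.35), without WT replicate 14 (-0.32) and without cKO replicates 2 and 7 (-0.32). It lay between -0.39 and -0.32 without 1 library. The causes of these losses were not tested, including any part of the fewer degrees of freedom that fewer libraries leave. Rc3h1, which was never called, turned positive with upper-quartile factors (0.00047), with voom (0.014) and without cKO replicates 2 and 7 (0.022), and ran from -0.072 to 0.081 without 1 library. The log2 difference of the Zfp36 to Zfp36l2 ratio was -0.76 with an exact permutation p of 0.0571 when the smaller tail was doubled, and -0.83 to -0.64 without 1 library, where the smallest exact p possible is 0.0667 or 0.1.

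For the lists, the number of called genes moved as follows. Deadenylation had 1 call, and 3 at the threshold of 0.1, 2 with DESeq2 and 3 with voom. Decapping had 0, and 1 at 0.1, with DESeq2 and with voom, and 0 to 1 without 1 library. Other mRNA binding proteins had 0, and 2 at 0.1 and 3 with voom. Upstream regulators had 2, and 1 to 2 without 1 library. Zfp36 family targets had 3, and 5 with voom and 2 to 7 without 1 library. Roquin and Regnase targets had 1, and 2 at 0.1, with voom and with no filter, 0 with a CPM of at least 1 in 3 libraries and without cKO replicates 2 and 7, and 0 to 2 without 1 library. Immediate early genes had 6, and 10 at 0.1, 11 with DESeq2, 10 with voom, and 6 to 9 without 1 library.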

Other observations

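Zc3h12a was not called, but its levels in the 7 libraries ran close to those of 3 other mRNAs, noticed after the values were seen and given as a description with no test. Errfi1, which encodes an inhibitor of the epidermal growth factor receptor, was nearest at an RMS difference of 0.065 in centred log2 CPM, where Zc3h12a itself varied by 0.283 about its mean. Nfkbiz, an NF-κB cofactor gene whose mRNA is a reported target of Regnase-1, was next at 0.0893, and Dnajc25, a DnaJ chaperone family gene, followed at 0.0974. None passed the test between cKO and WT, with log2 fold changes of -0.33 ± 0.19 (SE; adjusted p = 0.354, edgeR) for Errfi1, -0.29 ± 0.14 (adjusted p = 0.261) for Nfkbiz and -0.17 ± 0.16 (adjusted p = 0.614) for Dnajc25. No other of the 9673 genes searched lay within 0.1.

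Summed per kilobase of exon, the 3 Zfp36 family mRNAs stood at 561 ± 53.7 RPKM in cKO (n = 4) and 659.7 ± 43.2 in WT (n = 3), without a test. Zfp36 made up 23.2 ± 1.02% of the sum in cKO and 30.4 ± 3.74% in WT, and Zfp36l2 43.0 ± 2.83% and 33.2 ± 0.743%. These shares depend on the exon lengths used.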
